A study of Mus musculus with 6 samples.

Results

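The contractile actin cytoskeleton genes are 10 genes chosen by symbol, *Acta2*, *Actg2*, *Tagln*, *Cnn1*, *Cnn2*, *Tpm1*, *Tpm2*, *Myl9*, *Aif1l* and *Cald1*. All 10 were found among the 20405 named genes of the deposited table, each with 1 probe set. Total RNA of M0505 cells at an early passage (3 samples) and of STOSE cells (3 samples) was measured on Mouse Gene 1.0 ST microarrays from Affymetrix. M0505 is a line of surface epithelial cells from the ovary of FVB/N mice, and STOSE is the line that arose from it by spontaneous transformation over prolonged passage. Both lines were grown in the same medium, and the labels name no introduced gene and no treatment for either. STOSE is a single transformed line, so a difference between the lines cannot be told apart from differences in passage or in the aneuploidy that the study describes in both lines. The arrays are labelled as biological replicates, and nothing in the labels says that they came from separate cultures, so the p-values measure the spread between these RNA samples.

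Cells pull on their surroundings with actin filaments that slide against myosin. In smooth muscle cells, and in stress fibres of other adherent cells, the filaments carry tropomyosin along their length, and calponin, transgelin and caldesmon bind them as well. Serum response factor (SRF), with its actin-sensing cofactors of the MRTF family or with myocardin, binds CArG boxes near many of these genes and drives their transcription. Several of them, smooth muscle actin above all, are used in epithelial cells as markers of a more mesenchymal or myofibroblast state.

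Of the 10 genes, 5 rose in STOSE cells and 1 fell. *Aif1l*, *Acta2*, *Tpm2*, *Tagln* and *Cnn2* rose, with *Aif1l* 37.8-fold and *Acta2* 5.04-fold higher, and *Cnn1* was 2.49-fold lower. *Tpm1*, *Actg2*, *Cald1* and *Myl9* did not pass the threshold. The threshold was a 2-fold difference together with an adjusted p, from limma and the Benjamini-Hochberg method over all 20405 genes, below 0.05. By the same rule 4.9% of all genes were higher and 7.59% were lower, together 12.5%. Without the 2-fold condition 6 contractile genes were higher and 3 lower, where 31.6% and 24.8% of all genes were. In RNA of whole cultures, more cells that express a gene and more RNA per cell cannot be told apart. The 10 genes had a median log2 fold change of 0.92 and a median size of change of 1.41, against 0.08 and 0.25 over all genes. The values of the lines did not overlap in 9 of the 10 genes, compared with 64.6% of all genes. Centring each array on its median over all genes added 0.20 to every log2 fold change, and then 1466 genes were higher and 1177 lower in place of 1000 and 1548. The median log2 fold change of all genes moved with it from 0.08 to 0.28, further from no change. Over all probe sets the array medians already lay between 5.64 and 5.68 before centring. Centring is therefore given as an alternative scaling and not as a correction. The calls of the 10 genes were the same under this centring, with 5 higher and 1 lower.

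**Figure D1:**
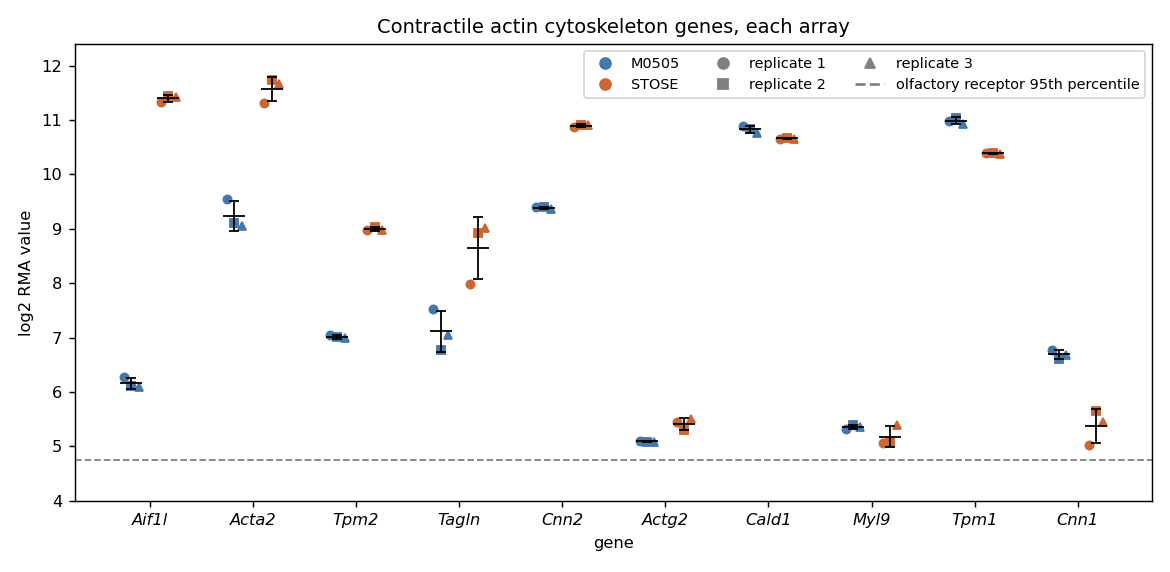
Log2 RMA value (vertical axis) of the 10 genes in each of the 6 arrays, with M0505 in blue, STOSE in orange and a marker shape for each replicate; black lines give the mean and SD of 3 arrays and the dashed line the olfactory receptor 95th percentile of 4.74. The STOSE arrays lie above all M0505 arrays for *Aif1l*, *Acta2*, *Tpm2*, *Tagln*, *Cnn2* and *Actg2*, below them for *Cald1*, *Tpm1* and *Cnn1*, and overlap them for *Myl9*.

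The promoters of the genes are shown first, because SRF is the factor known to bind many of them. For 8 of the 10 genes a promoter was found in the RefSeq set of build GRCm38.p6, *Actg2* and *Tagln* being the others. The 250 bases before the annotated start of 4 genes are printed 5′ to 3′, those of the 2 genes with the largest rises and of the 2 genes with a CArG box. *Acta2* lies on the minus strand at chr19:34255374-34255623, *Aif1l* on the plus strand at chr2:31950053-31950302, *Cnn2* on the plus strand at chr10:79988350-79988599 and *Myl9* on the plus strand at chr2:156775214-156775463. Capitals mark a CArG box, a CArG-like site in which 1 base of the inner 6 is C or G, or the MCAT motif CATTCC, searched on both strands.
Acta2: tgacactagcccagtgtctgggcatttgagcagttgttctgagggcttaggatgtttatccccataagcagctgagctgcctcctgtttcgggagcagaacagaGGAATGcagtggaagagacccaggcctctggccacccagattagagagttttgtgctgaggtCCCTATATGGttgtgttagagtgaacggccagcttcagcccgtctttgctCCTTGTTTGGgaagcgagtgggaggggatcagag
Aif1l: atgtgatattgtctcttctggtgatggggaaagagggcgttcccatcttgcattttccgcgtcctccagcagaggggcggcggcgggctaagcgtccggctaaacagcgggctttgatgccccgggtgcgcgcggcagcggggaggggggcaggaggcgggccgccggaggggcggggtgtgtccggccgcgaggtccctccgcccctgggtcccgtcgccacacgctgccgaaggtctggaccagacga
Cnn2: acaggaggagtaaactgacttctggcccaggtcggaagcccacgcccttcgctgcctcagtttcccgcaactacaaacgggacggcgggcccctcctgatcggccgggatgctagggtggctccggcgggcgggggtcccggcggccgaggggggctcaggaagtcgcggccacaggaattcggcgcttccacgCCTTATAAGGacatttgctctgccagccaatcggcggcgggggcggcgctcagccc
Myl9: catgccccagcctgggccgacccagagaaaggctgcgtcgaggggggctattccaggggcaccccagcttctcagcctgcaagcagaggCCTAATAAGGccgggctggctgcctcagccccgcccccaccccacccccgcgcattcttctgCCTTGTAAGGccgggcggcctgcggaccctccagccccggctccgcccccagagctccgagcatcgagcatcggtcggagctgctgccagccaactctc
A CArG box was found in 2 of the 8 genes, compared with 1.62% of the 27025 genes of the set, or 1.47% of its 32851 promoters of this length, since a gene can have several. In *Cnn2* it was CCTTATAAGG, 56 to 47 bases before the start, and in *Myl9* CCTAATAAGG, 161 to 152 bases before it. The gene of the first rose and the gene of the second was not called. A CArG-like site, present in 8.33% of all genes and 7.24% of all promoters, stood in *Acta2* at CCCTATATGG and CCTTGTTTGG and in *Myl9* at CCTTGTAAGG. The MCAT motif, bound by TEAD factors, was found in *Acta2*, *Tpm1* and *Cald1* as its reverse complement GGAATG, and in 14.4% of all genes and 12.6% of all promoters. *Cald1* had 2 promoters in the set, and only 1 of them held the motif. *Aif1l*, with the largest rise, held none of the 3 patterns in this window, and neither did *Cnn1* or *Tpm2*.

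*Acta2*, on chromosome 19, encodes smooth muscle α-actin. Its log2 values were 9.55, 9.11 and 9.06 in the M0505 arrays and 11.32, 11.74 and 11.66 in the STOSE arrays. The lowest STOSE array was far above the highest M0505 array. The log2 fold change was 2.33 (SE 0.15, adjusted p by limma = 3.84e-06), the mean moving from 9.24 ± 0.27 to 11.57 ± 0.22 (SD, n = 3), and it ranked 134 among the 1000 genes called higher. *Actg2*, on chromosome 6, encodes the smooth muscle γ-actin of gut and other viscera. It was close to the background in both lines, at 5.11, 5.08 and 5.08 in M0505 cells and 5.45, 5.30 and 5.51 in STOSE cells. The background level was read from 1134 probe sets for olfactory receptors, which ovarian cells are assumed not to express, and their 95th percentile was 4.74. The difference of 0.33 on the log2 scale (SE 0.07, adjusted p by limma = 0.00369) was under 2-fold. The coding sequences of the actins are very alike, so that part of a signal can come from another actin gene, and this was not tested.

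*Tpm1* and *Tpm2* encode tropomyosins, which run along actin filaments and govern the access of myosin. *Tpm2* rose, and *Tpm1* was lower by less than 2-fold. *Tpm2*, on chromosome 4, had log2 values of 7.06, 7.02 and 6.99 in M0505 cells and 8.98, 9.04 and 8.97 in STOSE cells. It thus rose 3.95-fold with little spread in either line (log2 fold change 1.98, SE 0.06, adjusted p by limma = 4.04e-08). *Tpm1*, on chromosome 9, had values of 10.99, 11.05 and 10.92 in M0505 cells and 10.40, 10.39 and 10.38 in STOSE cells. It was lower in every STOSE array, but by 1.51-fold only (log2 fold change −0.60, SE 0.06, adjusted p by limma = 4.03e-05), which is past the adjusted p and under 2-fold. Within an array, the difference of *Tpm2* to *Tpm1* changed by 2.58 on the log2 scale between the lines. With 3 arrays a line the exact two-sided permutation p of this change was 0.1, the smallest the design allows, and it was 0.1 after adjustment over the 3 pairs of related genes compared. The 2 other pairs were the calponins and the smooth muscle actins, for which the change was 2.83 and 2.00 with the same p.

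*Cnn1* and *Cnn2* encode calponins, actin-binding proteins that restrain the myosin ATPase. *Cnn1*, on chromosome 9, is the calponin of differentiated smooth muscle, whereas *Cnn2*, on chromosome 10, is found in many cell types. *Cnn1* had log2 values of 6.78, 6.61 and 6.68 in M0505 cells and 5.03, 5.65 and 5.45 in STOSE cells. All STOSE arrays were lower, and they were spread more widely than the M0505 arrays. The log2 fold change was −1.32 (SE 0.14, adjusted p by limma = 7.74e-05), with a 95% confidence interval of −1.64 to −0.99 that just included values under 2-fold. The STOSE values were near the background level of 4.74, which limits how large a fall can be read, also in the difference of *Cnn2* to *Cnn1*. *Cnn2* had log2 values of 9.39, 9.40 and 9.36 in M0505 cells and 10.87, 10.92 and 10.92 in STOSE cells. The arrays of each line lay close together and the lines far apart, and the gene rose 2.86-fold (log2 fold change 1.51, SE 0.05, adjusted p by limma = 1.50e-07).

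*Tagln*, on chromosome 9, encodes transgelin (SM22α), an actin-bundling protein of smooth muscle and fibroblasts. Its log2 values were 7.52, 6.78 and 7.05 in M0505 cells and 7.99, 8.92 and 9.02 in STOSE cells. The lines did not overlap, but the lowest STOSE array stood closer to the highest M0505 array than to the other STOSE arrays. The log2 fold change of 1.53 had the largest standard error of the 10 genes, 0.28 (adjusted p by limma = 0.0018), and a 95% confidence interval of 0.88 to 2.17. It was 1.85 without STOSE replicate 1 and 1.34 without STOSE replicate 3. STOSE replicate 1 was also the lowest of its line for 6 of the 10 genes, *Acta2*, *Tagln* and *Cnn1* among them, and M0505 replicate 1 was the highest of its line for 7.

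*Cald1* and *Myl9* had the smallest differences of the 10 genes. *Cald1*, on chromosome 6, encodes caldesmon, which links actin to myosin and is present in muscle and non-muscle forms that the single probe set does not separate. Its log2 values were 10.89, 10.83 and 10.77 in M0505 cells and 10.66, 10.68 and 10.65 in STOSE cells. The difference was −0.17 on the log2 scale (SE 0.06, adjusted p by limma = 0.0403) and became 0.035 when each array was centred on its median, which shifts all genes alike. *Myl9*, on chromosome 2, encodes a regulatory light chain of smooth muscle and non-muscle myosin II. Its log2 values were 5.31, 5.39 and 5.37 in M0505 cells and 5.06, 5.08 and 5.39 in STOSE cells, the lines overlapping. The difference of −0.18 (SE 0.09, adjusted p by limma = 0.138; 95% confidence interval −0.39 to 0.04) became 0.022 under the same centring. With an array left out the difference for *Myl9* was between −0.29 and −0.12. It passed the adjusted p only without STOSE replicate 3 (−0.29, adjusted p by limma = 0.00882). The differences from the median change of all genes, −0.24 for *Cald1* and −0.25 for *Myl9*, are not altered by centring.

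*Aif1l*, on chromosome 2, encodes a calcium-binding protein related to AIF1 that binds and bundles actin. Its log2 values were 6.27, 6.12 and 6.09 in M0505 cells and 11.33, 11.45 and 11.42 in STOSE cells. The gap between the lines was larger than the range within either line and gave a log2 fold change of 5.24 (SE 0.07, adjusted p by limma = 2.01e-09), rank 6 among the 1000 genes called higher. Its paralog *Aif1*, best known from macrophages, had values below the background level of 4.74 on all arrays, at 4.37 ± 0.02 and 3.90 ± 0.04 (SD, n = 3).

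**Figure D2:**
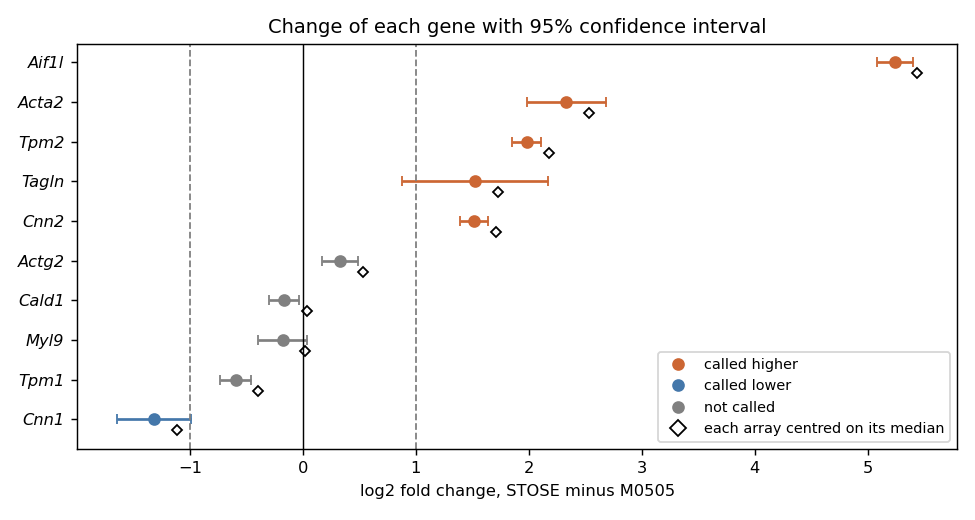
Log2 fold change of STOSE over M0505 cells (horizontal axis) for the 10 genes, with the 95% confidence interval from limma as bars; orange is called higher, blue called lower and grey not called, dashed lines mark 2-fold, and open diamonds give the value with each array centred on its median. The changes run from −1.32 for *Cnn1* to 5.24 for *Aif1l*, and centring moves only *Cald1* and *Myl9* across 0.

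Genes near each other on a chromosome can change together, so each of the 10 genes was set beside the 5 measured genes on either side of it in the RefSeq order of GRCm38.p6. Of these 100 neighbours 6 were called higher and 4 lower, or 10%, where 12.5% of all genes were called. The medians of the neighbours lay between −0.17 for *Cnn2* and 0.18 for *Aif1l*, and the medians of the 6 chromosomes concerned between −0.05 and 0.18. Of the neighbours of *Acta2*, 2 were called higher, the lipase gene *Lipn* (log2 fold change 3.56) and the interferon-induced gene *Ifit2* (1.60), while the genes directly beside it, *Stambpl1* and *Fas*, were at 0.06 and 0.35. *Hmha1*, the second gene after *Cnn2*, was higher by 1.78 and *Abca7*, between them, was at −0.93. None of the 10 neighbours was called for *Tpm2*, *Cnn1* or *Cald1*, 1 was lower for *Tagln* (*Bace1*, −1.11, and −0.91 with centring) and 2 were lower for *Tpm1* (*Rora*, −2.13, and *Aph1c*, −1.19, the latter −0.99 with centring). For *Actg2* 1 neighbour was higher (*Mthfd2*, 1.10, and 0.85 without M0505 replicate 2), and for *Myl9* 1 was higher (*Epb4.1l1*, 1.03) and 1 lower (*Ndrg3*, −1.03). *Epb4.1l1* was under 2-fold without M0505 replicate 2 (0.957) or STOSE replicate 1 (0.955), and *Ndrg3* with centring (−0.83) and without M0505 replicate 2 (−0.99) or 3 (−0.998). The genes directly beside *Aif1l* were *Lamc3* at −0.97 and *Nup214* at 0.33, and *Exosc2*, 5 places before it, was higher by 1.09. These neighbours were named after their values were seen.

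**Figure D3:**
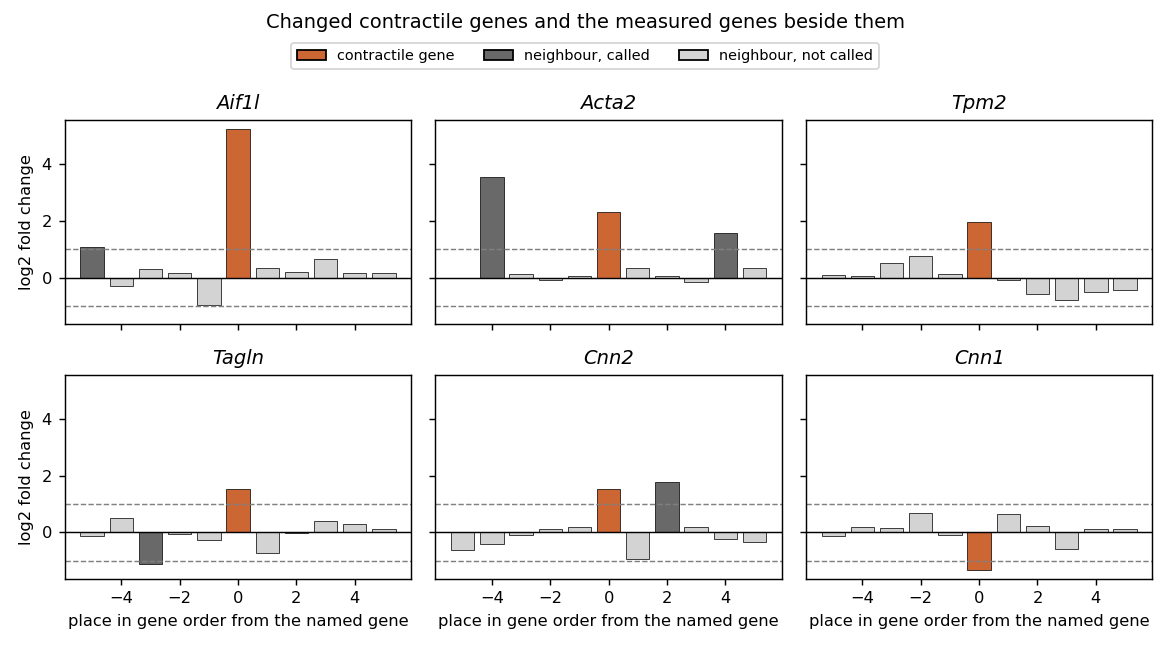
Log2 fold change (vertical axis) of the 6 contractile genes called changed, in orange, and of the 5 measured genes on each side of them in gene order (horizontal axis), in dark grey where called and light grey where not; dashed lines mark 2-fold. In each panel the contractile gene stands out from the genes directly beside it, and *Acta2* has called neighbours 4 places away on both sides.

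Across the 6 arrays, the genes outside the 10 whose log2 values followed *Aif1l* most closely were *Cd97* (Pearson's r = 0.99996), *Polh* (0.99993) and *Hoxc8* (0.99986), with log2 fold changes of 1.16, 1.24 and 3.79. For *Cnn1* they were *Dmkn* (r = 0.99928), *Prune* (0.99866) and *Cd151* (0.99821), with −2.48, −0.71 and −0.39. The 6 arrays form 2 groups, so that a high r can come from the difference between the lines alone, and 1016 genes had an r over 0.99 with *Aif1l* and 48 with *Cnn1*.

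The wider actin pathway was read from 8 lists that hold 101 genes, all of them measured, and 7 of the lists are described here. Of these 11 were higher and 3 were lower, 13.9% together, close to the 12.5% of all genes, and their median log2 fold change was 0.14. With each array centred on its median the counts were 15 and 0, so that none of the 3 lower genes was called under both scalings.

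None of the 4 cytoplasmic and sarcomeric actins was called, where 12.5% of all genes were. *Actb* (0.04 on the log2 scale) and *Actg1* (0.18) of the cytoplasm were bright in both lines, and the sarcomeric *Acta1* and *Actc1* differed by 0.39 and 0.48. Of the 6 paralogs of the contractile genes none was called either. The log2 fold changes were 0.51 for *Tpm3*, 0.23 for *Tpm4*, 0.15 for *Cnn3*, 0.87 for *Tagln2*, 0.19 for *Tagln3* and −0.47 for *Aif1*. *Tagln2* alone of the 6 was called with centring, at 1.07.

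Of 8 myosin II chains, which form the motor that pulls on actin, 1 was called, the same 12.5% as of all genes. *Myh14*, the heavy chain of non-muscle myosin IIC, fell from 6.93 ± 0.04 to 5.87 ± 0.17 (SD, n = 3; log2 fold change −1.06, adjusted p by limma = 1.73e-05). It was no longer 2-fold lower with centring (−0.86), after a further quantile normalization (−0.88) or without STOSE replicate 2 (−0.99). *Myh9*, the heavy chain of myosin IIA, differed by 0.91, and by 1.24 with the mean of its probe sets and 1.11 with centring, both past the threshold. *Myh10* (−0.19), the smooth muscle heavy chain *Myh11* (0.04) and the light chain genes *Myl6* (−0.02), *Myl6b* (−0.75), *Myl12b* (−0.28) and *2900073G15Rik* (named *Myl12a* in RefSeq, −0.12) were not called.

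*Srf* itself rose 2.08-fold, from log2 values of 8.39 ± 0.02 to 9.45 ± 0.04 (SD, n = 3; log2 fold change 1.06, SE 0.05, adjusted p by limma = 1.09e-06). Its cofactor genes did not pass the threshold, with *Mkl1* (MRTF-A) at 0.41, *Mkl2* (MRTF-B) at −0.39 and *Myocd* (myocardin) at 0.23 and below the background level on average in both lines. The ETS cofactors *Elk1*, *Elk3* and *Elk4* were at −0.80, −0.60 and 0.20. Of 18 target genes of SRF and MRTF, 3 rose and 2 fell, together 27.8%, where 4.9% of all genes were higher and 7.59% lower. *Cyr61*, a matricellular protein gene, rose by 1.97, the immediate early gene *Egr1* by 1.17 and *Csrp1*, a LIM protein of actin bundles, by 1.04. *Fos*, another immediate early gene, fell by 1.15 and *Tns1*, a tensin of focal adhesions, fell by 1.09. *Csrp1* was just under 2-fold without M0505 replicate 2 (0.996) or STOSE replicate 3 (0.99), and *Fos* was at −0.93 without STOSE replicate 1 and −0.95 with centring, where *Tns1* was at −0.89.

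In the list of 18 stress fibre crosslinkers and adhesion linkers none fell. With so few genes this is near the 7.59% of all genes that were lower. *Fblim1*, the gene of migfilin, which acts at cell adhesions, rose from 5.41 ± 0.04 to 8.88 ± 0.10 (SD, n = 3; log2 fold change 3.47, SE 0.07, adjusted p by limma = 6.59e-09). Of 20 genes of actin turnover and bundling 3 rose and none fell, and this share of 15% is close to the 12.5% of all genes. *Capg*, which caps filament ends, rose by 2.46, the bundling protein gene *Fscn1* by 1.13 and *Tmsb10*, whose product sequesters actin monomers, by 1.13.

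**Figure D4:**
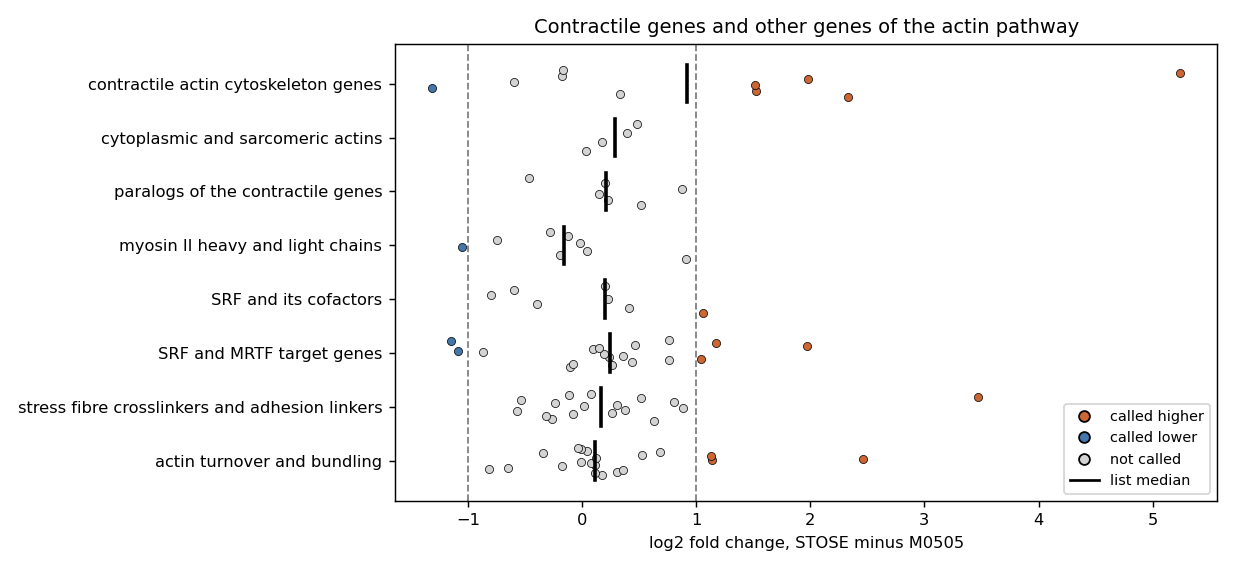
Log2 fold change of STOSE over M0505 cells (horizontal axis) for the 10 contractile genes and the genes of 7 actin pathway lists, 1 point a gene (1 gene of the stress fibre list is not shown), with orange called higher, blue called lower, grey not called, a black bar for the list median and dashed lines at 2-fold. The contractile genes have a median of 0.92, and the medians of the other lists lie between −0.16 and 0.28.

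Markers of differentiated smooth muscle were read beside *Acta2* and *Tagln*. Of 10 such genes none was called, where 12.5% of all genes were, and the median log2 fold change was 0.11. At the adjusted p alone 5 of the 10 were higher and 3 lower, where 31.6% and 24.8% of all genes were. The means of 6 of the 10 lay above the background level in each line. The brightest was *Smtn* at 9.54 in M0505 and 9.73 in STOSE cells, and *Myh11*, which defines the differentiated state, was at 5.07 and 5.12. *Myocd*, *Kcnmb1*, *Itga8* and *Pln* had means below the background level in both lines. The summed linear signal of the list was 1034, 1069 and 1009 in the M0505 arrays and 1165, 1097 and 1107 in the STOSE arrays, and *Smtn* made up most of it.

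The labelled cell type was checked with markers of the ovarian surface epithelium and mesothelium. Of 11 measured genes all had means above the background level in both lines, *Upk3b* being the brightest. Of these 11 genes 3 were called lower and 0 higher, where 7.59% of all genes were lower and 4.9% higher. At the adjusted p alone 8 were lower and 0 higher, where 24.8% and 31.6% of all genes were. The median log2 fold change over the list was −0.61. The keratin genes *Krt19* (−5.56), *Krt8* (−4.55) and *Krt7* (−1.03) fell, and *Krt18* was at −0.84. *Krt7* was under 2-fold with centring (−0.83), which left 2 lower genes in the list, and without M0505 replicate 2 (−0.99), M0505 replicate 3 (−0.997) or STOSE replicate 1 (−0.89). The mesothelial genes *Wt1* (−0.63), *Msln* (−0.61), *Upk3b* (−0.34) and *Upk1b* (−0.33) were lower by less than 2-fold, each past the adjusted p, and *Lrrn4* (−0.15) and *Cdh2* (0.18) did not pass it. *Cdh1*, the epithelial cadherin, was near the background in both lines, at 4.79 and 4.82. Of 8 stromal markers *Thy1* rose by 1.49 and *Col1a2* fell by 2.45 on the log2 scale, of 7 pericyte markers *Mcam* rose by 1.26, and of 10 skeletal and cardiac muscle markers none was called. The granulosa (6 genes), endothelial (7) and leukocyte (8) lists each held 1 called gene, which was lower in STOSE cells. These were *Inha* (log2 fold change −3.93), *Kdr* (−5.17) and *Cd68* (−2.82). The called shares were 16.7%, 14.3% and 12.5% in these lists, 14.3% in the pericyte, 25% in the stromal and 0% in the skeletal and cardiac muscle list, where 12.5% of all genes were called. The part of these genes in the changes of the contractile genes was not tested.

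**Figure D5:**
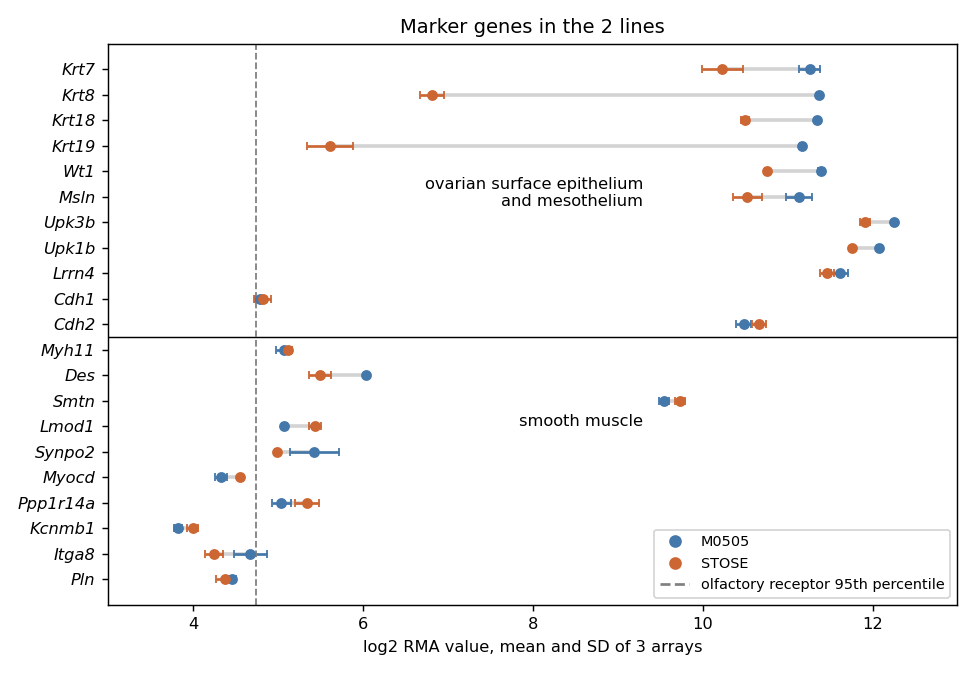
Log2 RMA value (horizontal axis, mean and SD of 3 arrays) of marker genes of the ovarian surface epithelium and mesothelium and of smooth muscle in M0505 (blue) and STOSE cells (orange), with the olfactory receptor 95th percentile of 4.74 as a dashed line. The smooth muscle markers other than *Smtn* lie between 3.82 and 6.04, and the 2 lines differ most at *Krt19* and *Krt8*.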

How the data were processed

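RNA of 3 M0505 and 3 STOSE samples was profiled on Mouse Gene 1.0 ST microarrays from Affymetrix. The values were background-corrected, normalized and summarized by the authors with RMA (robust multi-array average) and deposited as 1 table of log2 values, with a column for each array. Per the labels the Affymetrix Expression Console was used, with versions, annotation release and genome build not given in the sources used here. The table also holds line means and fold changes that the authors computed, which were not used. Of 28944 probe sets, 23530 had a symbol, and each of 20405 genes was represented by its brightest probe set on average over the 6 arrays. Arrays have no read depth, and their number limits the precision. Probe-level data were not used here, and the steps inside RMA were therefore not varied.

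STOSE was compared with M0505 in limma 3.58.1 (lmFit, eBayes; R 4.3.3) without covariates, with Benjamini-Hochberg adjustment over all genes. On simulated data for this comparison, with 200 of 20405 genes changed, 99.5% were recovered with 0 false calls. The fold changes given to these 200 genes are not stated here, so the 99.5% is not the recovery of genes near 2-fold. A share of changed genes as large as the 12.5% called here was not tested. The 10 genes, the lists and the olfactory receptor measure were chosen with earlier results of these data known, and the promoter motifs after the values were seen. The rule for naming was the 10 genes, the called genes of the lists, every gene of lists of 8 or fewer, and the 3 genes most like *Aif1l* and *Cnn1*. It was followed for the pathway lists described, while of the pericyte, stromal, granulosa, endothelial and leukocyte lists only the called genes are named. Further marker genes were named after their values were seen. The alternatives were another normalization, the mean of the probe sets, a filter on dim genes, other tests and thresholds, the replicate number as a block and leaving out each array. No batch was named in the labels or the table. The results of 1 pathway list and of 1 further gene are not reported here.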

Additional observations from a re-analysis of the deposited data

How the results depend on the processing

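The counts of 5 higher and 1 lower contractile gene were the same under every alternative run except the 2 other fold thresholds. At the adjusted p alone 6 were higher and 3 lower, where all genes gave 6454 and 5066 and the 101 other actin pathway genes 47 and 23. At 4-fold the counts were 2 and 0, against 186 and 509 of all genes and 2 and 0 of the pathway genes. With centring of each array on its median, 0 pathway genes were lower in place of 3. Among the contractile genes and the pathway genes named here, the direction turned for *Myl9* (0.022), *Cald1* (0.035), *2900073G15Rik* (0.078), *Myh10* (0.0069) and *Myl6* (0.18). None of them had been called, and *Myl6* was between −0.073 and 0.0010 with an array left out. The shift that centring adds to every gene gives these turns, and it also turns other genes with falls smaller than the shift. The methods' t-test with the 2-fold condition gave 996 higher and 1546 lower genes unadjusted and 988 and 1543 after Benjamini-Hochberg adjustment, with the same counts for the contractile genes. With each array left out in turn the contractile genes gave 5 higher and 1 lower throughout, all genes 955 to 1065 higher and 1508 to 1591 lower, and the pathway genes 10 to 11 higher and 2 to 3 lower. The adjusted p of *Cald1*, past 0.05 with all arrays, was between 0.0402 and 0.0993 with an array left out and 0.0753 after a further quantile normalization. Arrays of the same replicate number deviated together unevenly (r across genes of 0.26, 0.04 and 0.25 for numbers 1, 2 and 3). Between arrays of different numbers r was from −0.29 to 0.12. Whether the numbers mark pairs cannot be told from this, and the main comparison did not take them as pairs. With the replicate block the counts were 5 higher and 1 lower for the contractile genes, 1001 and 1548 for all genes and 11 and 3 for the pathway genes. With 3 arrays a line, an exact permutation test cannot go below 0.1, and signals near the olfactory receptor 95th percentile, as for *Actg2*, *Myl9* and *Cnn1* in STOSE cells, limit the size of change that can be read.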
